A study of Mus musculus with 2 samples.

Results

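The GDNF family receptors and ligands were followed as 6 of the 32285 listed genes: the receptor gene Ret, the co-receptor genes Gfra1, Gfra2 and Gfra3, and the ligand genes Artn and Gdnf. They were found by symbol and were selected on their levels over hair follicle (HF) cell groups in these same libraries, so the levels below are a description. The data were single-cell RNA counts of skin epithelial cells from postnatal day 1 (P1) mouse back skin, from a PADI4 WT library and a library labelled PADI4 cKO, each the only one of its genotype and both of batch 1. The mice of the PADI4 cKO library carried K14-Cre, which is driven by the keratinocyte promoter of Krt14, and floxed Padi4 (Padi4 fl/fl). The Ai14 reporter turned on tdTOMATO wherever Cre had acted, and tdTOMATO-positive cells of the dermal/HF fraction were sorted, about 100000 per animal. WT cells were also sorted as tdTOMATO-positive, and how many animals went into each library was not given.

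GDNF family ligands signal through RET, a receptor tyrosine kinase, which they reach only together with a GFRα co-receptor anchored in the membrane. GDNF prefers GFRα1, neurturin GFRα2, artemin GFRα3 and persephin GFRα4. The family is best known from enteric nerves, sensory neurons and the ureteric bud of the kidney. In skin, ligands of the family made by keratinocytes are known as trophic factors for the sensory nerves that reach it.

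The libraries held 143938990 (WT) and 143945294 (cKO) UMIs, and 8070 and 7393 droplets passed the cell limits, with medians of 14670 and 16208 UMIs and 14 barcodes in common. They fell into 26 clusters, of which 24 were epithelial (7995 and 7356 cells), and 20 had at least 50 cells in each library and were compared. Clusters with enough markers were called LPC-like (lower proximal cup progenitors), GL-like (germinative layer), IRS-like (inner root sheath), Cx-like (cortex), ORS-like (outer root sheath) or SG-like (sebaceous gland), the others keep their number, and 10 of the 20 were assigned to the bulb. UMIs of the floxed gene were about as frequent in both libraries: epithelial cells held 98 Padi4 UMIs in WT (0.770 in counts-per-million units, CPM) and 92 in the library labelled PADI4 cKO (0.711 CPM). Counts from a 3′ kit need not cover the floxed exons, so the loss of those exons was not tested. The libraries did differ in sex: 62.4% of WT epithelial cells held Y-linked UMIs without Xist and 26.0% held Xist without Y-linked UMIs, whereas 98.3% of cKO cells held Xist without Y-linked UMIs and 0 cells the reverse. Genotype and this difference cannot be told apart between whole libraries, so the main ratios of Ret, Gfra3 and Artn are given again in Xist-only cells. Those of Gfra1, Nrtn and the other pathway genes were not computed in Xist-only cells. With 1 library per genotype there is no replicate check, every interval is a 95% interval that covers counting error only, and no p-value is given.

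Among the 20 compared clusters, both ligand genes of the set had their highest mean level in the same one, and the 250 bases before their RefSeq starts (GRCm38.p6) are shown for that reason. Capitals mark a TATAAA box and the E-box CANNTG, searched on both strands. RefSeq lists 1 start for Artn, whose window is chr4:117929764-117930013 on the minus strand. It lists 2 for Gdnf, whose windows are chr15:7809798-7810047 and chr15:7813477-7813726 on the plus strand.
Artn: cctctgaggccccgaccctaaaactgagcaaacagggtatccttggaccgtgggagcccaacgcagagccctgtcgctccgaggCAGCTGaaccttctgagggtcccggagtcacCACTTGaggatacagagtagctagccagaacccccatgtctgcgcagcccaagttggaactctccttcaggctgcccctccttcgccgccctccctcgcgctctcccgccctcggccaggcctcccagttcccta
Gdnf, first start: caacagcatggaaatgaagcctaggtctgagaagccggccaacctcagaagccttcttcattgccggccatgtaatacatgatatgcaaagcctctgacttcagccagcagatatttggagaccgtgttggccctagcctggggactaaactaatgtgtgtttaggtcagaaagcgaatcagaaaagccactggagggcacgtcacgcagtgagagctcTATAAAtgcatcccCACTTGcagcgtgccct
Gdnf, second start: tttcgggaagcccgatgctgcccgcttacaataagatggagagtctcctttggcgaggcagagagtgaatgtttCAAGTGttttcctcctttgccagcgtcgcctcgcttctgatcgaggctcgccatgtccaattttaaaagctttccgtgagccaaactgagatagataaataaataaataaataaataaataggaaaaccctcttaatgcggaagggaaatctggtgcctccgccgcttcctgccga
The first Gdnf window held TATAAA beginning 31 bases before the start, a box that 12.3% of the 32536 mouse promoter windows of this length held. Each of the 3 windows held the E-box form CACTTG on one of its strands (CAAGTG in the second Gdnf window), a form picked after the windows had been seen and present in 11.5% of all windows. The general form CANNTG was in 66.2% of windows, and Artn held a second one, CAGCTG. The letters TGANTCA and CCACCC, in 6.73% and 28.1% of all windows, were in none of the 3. These are matches of letters alone. Promoter entries were found for 3 of the 6 members, Artn, Gdnf and Gfra1. The Gfra1 window, not shown, also held CACTTG, so the form was not limited to the ligand genes. The window of Nrtn, a ligand gene outside the set, did not hold it.

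Ret (ENSMUSG00000030110, chr6:118151745-118197718 on the minus strand, GRCm38), the gene of the signalling receptor, held 1346 UMIs in WT and 1538 in cKO epithelial cells, or 10.6 (95% interval 10.0 to 11.2) and 11.9 (11.3 to 12.5) CPM. Among the compared clusters it was concentrated in 3. Cluster 13 held 500 and 507 of these UMIs (37.1% and 33.0% of them) in 315 and 243 cells, a level of 98.5 (90.1 to 107.6) CPM in WT and 115.7 (105.9 to 126.3) CPM in cKO. LPC-like cluster 14 held 231 and 397 UMIs, at 47.9 (42.0 to 54.5) and 54.3 (49.1 to 59.9) CPM. ORS-like cluster 1 held 313 and 275 UMIs, at 27.7 (24.8 to 31.0) and 33.8 (29.9 to 38.0) CPM. The order of these 3 was the same in both libraries, and neighbours in it had intervals that did not overlap.

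Below them, cluster 18 stood at 13.5 and 15.3 CPM, although its cells differed in depth between libraries, with medians of 6282 UMIs in WT and 31512.5 in cKO. GL-like cluster 8 (6.02 and 8.29 CPM) and ORS-like cluster 5 (3.91 and 6.999 CPM) followed, and from GL-like cluster 8 down each cluster's interval overlapped that of the next in both libraries. Of the clusters too small to compare, cluster 22, which carried Krt75, held 22 Ret UMIs in 40 WT cells and 29 in 34 cKO cells (37.7 and 55.5 CPM), and cluster 23 held 17 in 39 and 4 in 20 (34.7 and 18.2 CPM). Across the bulb Ret was uneven. It reached 54.3 CPM in LPC-like cluster 14 of the cKO library, while the other LPC-like clusters stood at 3.65 and 4.42 CPM (cluster 7) and 3.33 and 0.892 CPM (cluster 12), and Cx-like cluster 16 at 0.685 and 1.10 CPM. The 10 bulb clusters together held 5.81 (WT) and 7.62 (cKO) CPM of Ret, and the other epithelial clusters 16.4 and 18.8 CPM. Bulb clusters were assigned by the marker list with most raised genes, without a minimum number. Cluster 13, which could not be named, was counted among the others.

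**Figure D1:**
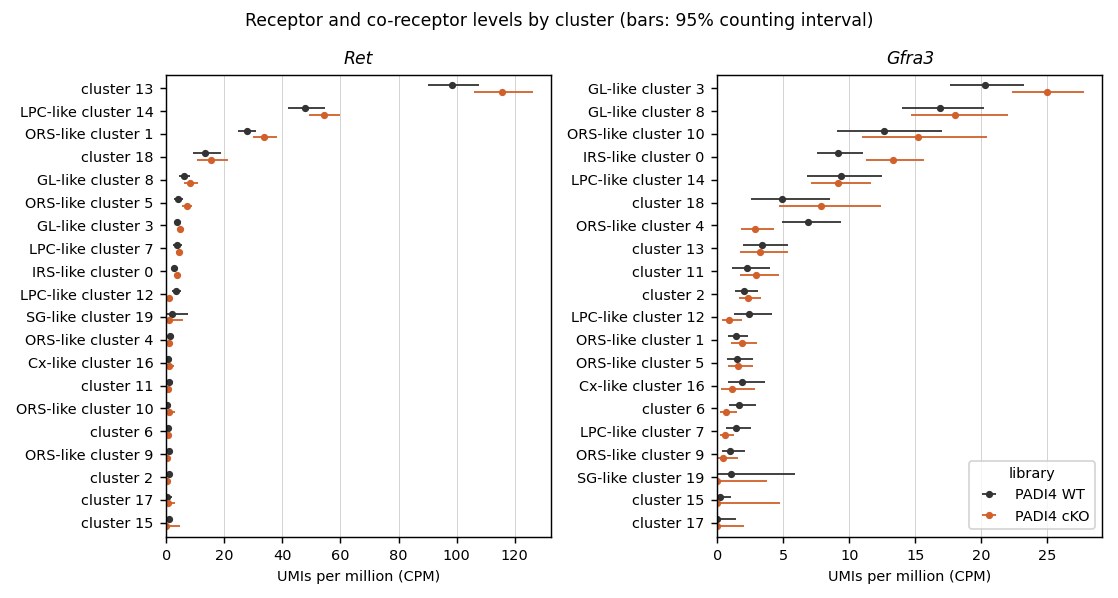
Level of Ret (left) and Gfra3 (right) in CPM in each of the 20 compared clusters, sorted by the mean of both libraries, with points for PADI4 WT (dark) and PADI4 cKO (orange) and bars for the 95% counting interval. Ret was highest in cluster 13 (98.5 and 115.7 CPM) and Gfra3 in GL-like cluster 3 (20.3 and 25.0 CPM).

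Single cells gave the same order. A Ret UMI was found in 225 of 315 WT cells (71.4%, 66.1 to 76.4%) and 197 of 243 cKO cells (81.1%, 75.6 to 85.8%) of cluster 13, with up to 8 and 15 UMIs in a cell. In LPC-like cluster 14 the shares were 52.3% and 59.6%, and in ORS-like cluster 1 they were 24.2% and 29.8%. In cluster 17, which carried medulla markers and little Ret, 1 of 190 WT cells (0.526%) and 1 of 117 cKO cells (0.855%) held a Ret UMI, at median depths of 13752.5 and 15016 UMIs, against 15585 and 16625 UMIs in cluster 13. Free RNA could give at most 0.741 and 0.952 CPM of Ret, if the collagen UMIs of epithelial cells all came from it. With each cell thinned to 2000 UMIs, the share in cluster 13 was 17.7% in WT and 20.2% in cKO and that in LPC-like cluster 14 was 8.84% and 10.1%, so cluster 13 stood above cluster 14 at equal depth too.

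Cluster 13, where Ret peaked, could not be given a cell name. Its leading genes were Tagln, Olfml2b, Acta2 and Myl9, of which Tagln, Acta2 and Myl9 code for parts of the contractile apparatus, and Krt19 was also among its leading 10. Of the marker lists, 2 of 5 ORS genes (Krt15 and Tbx1) and 2 of 6 Merkel cell genes (Krt8 and Krt18) were raised, which was below the 3 needed. The Merkel cell list summed to 24.4 CPM in both libraries with 4 of its 6 genes at 0. The 5 Schwann cell genes summed to 1.58 and 2.05 CPM there (1 and 2 at 0), the 4 neuronal genes to 0.788 and 0.913 CPM (3 and 2 at 0), and the 4 mural genes to 0.985 and 1.60 CPM (2 and 1 at 0). In LPC-like cluster 14, the Schwann cell genes summed to 2.91 and 2.46 CPM and the neuronal genes to 0.830 and 0.274 CPM.

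The 5 genes whose profile over the 20 clusters was most like that of Ret were Rmnd5b (Pearson r = 0.96), Gm12446 (0.95), Slit3 (0.95), Foxe1 (0.94) and Adgrg1 (0.93), out of 10968 genes. Slit3 codes for a secreted guidance protein, Foxe1 for a forkhead transcription factor and Adgrg1 for an adhesion G protein-coupled receptor. All 5 had their highest level in cluster 13. These r values describe 20 clusters that share libraries and depth, and both libraries gave high values on their own, for example 0.95 in WT and 0.92 in cKO for Slit3.

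Gfra3 (ENSMUSG00000024366), the co-receptor gene for artemin, had a higher level summed over the bulb clusters than over the other epithelial clusters. It held 718 and 842 UMIs in epithelial cells (5.642 and 6.504 CPM), at 7.85 (WT) and 8.83 (cKO) CPM in the bulb clusters against 2.93 and 2.72 CPM in the others. Across the bulb Gfra3 was uneven, like Ret. Bulb clusters 0, 3, 8 and 14 stood between 9.16 and 25.0 CPM in both libraries. Bulb clusters 2, 7, 11, 12, 16 and 17 stood between 0 and 2.93 CPM. GL-like cluster 3, whose leading genes also included Kit, Myb and Eda, was highest of the compared clusters with 210 and 330 UMIs, or 20.3 (17.6 to 23.2) and 25.0 (22.3 to 27.8) CPM. GL-like cluster 8 followed with 118 and 98 UMIs, or 16.9 (13.99 to 20.2) and 18.05 (14.7 to 22.0) CPM. The intervals of these clusters overlapped in WT and did not in cKO.

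The next Gfra3 levels came from different layers. ORS-like cluster 10, outside the bulb, stood at 12.6 and 15.2 CPM (42 and 43 UMIs), IRS-like cluster 0 at 9.16 and 13.3 CPM (113 and 147 UMIs) and LPC-like cluster 14 at 9.34 and 9.17 CPM (45 and 67 UMIs). Their intervals overlapped with those of their neighbours in the order. At the low end, cluster 17 held 0 Gfra3 UMIs in 190 WT cells (which allows up to 1.58% of cells with a UMI) and in 117 cKO cells (2.56%), and cluster 15 held 1 UMI in WT and 0 in cKO. The libraries had intervals of Gfra3 apart in 2 of the 20 clusters, IRS-like cluster 0 and ORS-like cluster 4. The latter stood at 6.90 (4.93 to 9.39) CPM in WT and 2.87 (1.82 to 4.31) CPM in cKO, on 40 and 23 UMIs.

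A Gfra3 UMI was found in 138 of 534 WT cells (25.8%) and 199 of 601 cKO cells (33.1%) of GL-like cluster 3, at median depths of 20459 and 21236 UMIs. The shares were 16.1% and 15.1% in GL-like cluster 8, 10.89% and 13.04% in IRS-like cluster 0, and 12.8% and 13.8% in LPC-like cluster 14. Thinned to 2000 UMIs per cell, GL-like cluster 3 held 3.61% and 4.96%. The 5 melanocyte genes summed to 27.4 and 29.1 CPM in GL-like cluster 3, and their part in its Gfra3 level was not tested.

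The profiles nearest to that of Gfra3 were less close than those for Ret: Tspan6 (r = 0.80), Phactr1 (0.80), Cdc42ep2 (0.79), Slc25a28 (0.77) and Fzd1 (0.76), the last a Wnt receptor gene. Tspan6 and Cdc42ep2 peaked in IRS-like cluster 0, and of the 5 genes Slc25a28 alone shared GL-like cluster 3 with Gfra3. Myb, a transcription factor gene of proliferating progenitors, had r = 0.57 with Gfra3.

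Ret and Gfra3 thus peaked in different cells. Cluster 13 had 98.5 and 115.7 CPM of Ret but 3.35 and 3.20 CPM of Gfra3, and GL-like cluster 3 had 20.3 and 25.0 CPM of Gfra3 but 3.57 and 4.76 CPM of Ret. LPC-like cluster 14 had rank 2 for Ret in both libraries, and ranks 4 (WT) and 5 (cKO) for Gfra3. Over the 20 clusters the correlation of Ret with Gfra3 was r = 0.34 on the log2(CPM + 1) scale, a description of points from the same libraries.

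**Figure D2:**
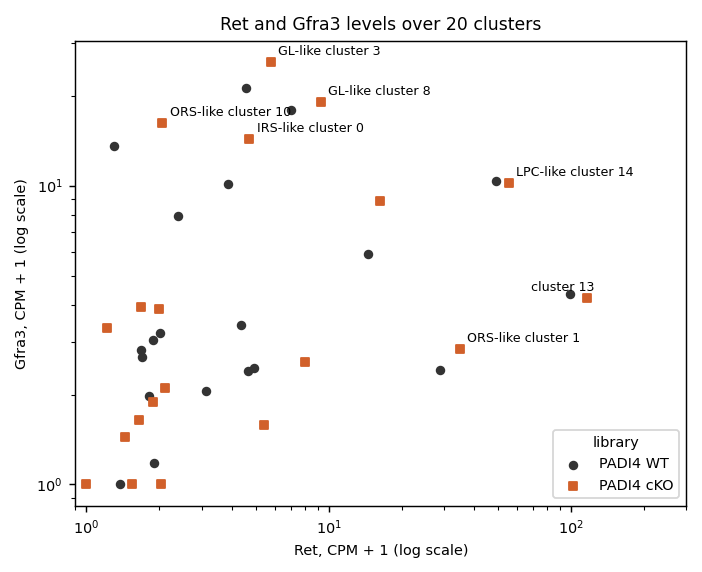
Level of Ret (horizontal) against Gfra3 (vertical), each as CPM + 1 on a log axis, with a point for each of the 20 compared clusters in PADI4 WT (circles) and PADI4 cKO (squares). Cluster 13 lies far right and low (98.5 and 115.7 CPM of Ret), the GL-like clusters lie high and to the left, and LPC-like cluster 14 lies right of the middle in both directions.

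Within bulb clusters, cells with UMIs of both genes were about as many as independent detection would give. The expected number was computed within 10 bins of cell depth in each cluster and summed. In WT, 45 bulb cells (32.8 to 60.2) held both against 36.2 expected, and in cKO 63 (48.4 to 80.6) against 55.9. The intervals held the expected number in both libraries. LPC-like cluster 14 gave 20 cells against 15.8 in WT and 28 against 29.0 in cKO, within the counting interval of what the level of each gene gives.

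GL-like cluster 8 was the furthest from independence in WT, with 9 cells against 4.49 expected, but 6 against 5.87 in cKO. GL-like cluster 3 went the other way, with 8 against 9.85 in WT and 22 against 15.9 in cKO. Of bulb cells with a Ret UMI, 18.1% (WT) and 17.5% (cKO) also held Gfra3, and of those with Gfra3, 12.0% and 14.9% also held Ret. In LPC-like cluster 14, 71.4% and 60.9% of the cells with Gfra3 held Ret as well. At a few UMIs per cell a missing co-receptor UMI does not show that the cell lacks the transcript.

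**Figure D3:**
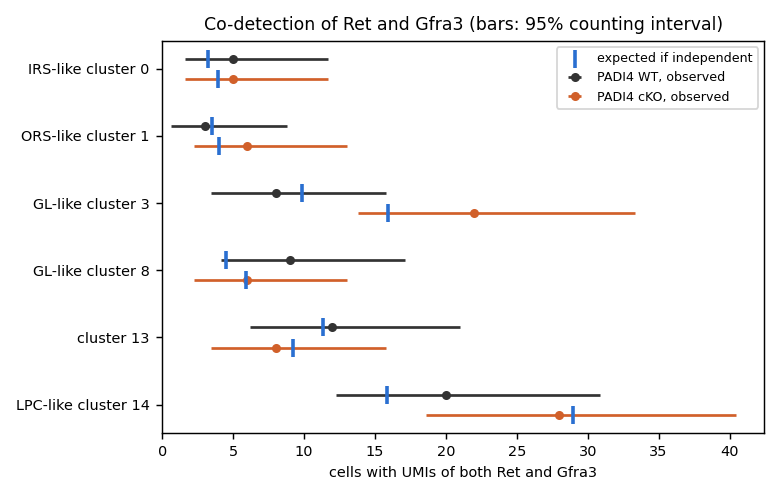
Number of cells with UMIs of both Ret and Gfra3 in the 6 clusters where at least 2 such cells were expected in a library, for PADI4 WT (dark) and PADI4 cKO (orange) with 95% counting intervals, beside the number expected if the genes were detected independently at the same depth (blue bars). LPC-like cluster 14 had 20 and 28 cells, against 15.8 and 29.0 expected.

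Gfra1 (ENSMUSG00000025089, chr19:58235604-58455909, overlapped on the other strand by Gm16277), the co-receptor gene for GDNF, was sparse, with 104 and 95 epithelial UMIs (0.817 and 0.734 CPM). Cluster 13, the Ret peak, held 27 and 30 of them (5.32 and 6.85 CPM) in 20 and 15 cells. ORS-like cluster 10 held 17 and 31 UMIs (5.11 and 10.9 CPM), of which 13 of the cKO UMIs came from 1 cell called a doublet. Among the small clusters, cluster 22 held 4 and 7 Gfra1 UMIs in 40 and 34 cells (6.86 and 13.4 CPM), and the melanocyte-like cells held 8 and 2 in 26 and 10 cells (24.4 and 10.3 CPM). In ORS-like cluster 4, 24 and 8 UMIs were found, and 1 cell gave 70.8% of those in WT. No Gfra1 UMI was found in GL-like clusters 3 and 8, LPC-like clusters 7 and 12 or Cx-like cluster 16 of either library, which in GL-like cluster 3 allows up to 0.562% (WT) and 0.499% (cKO) of cells with a UMI.

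In cluster 13, 13 of the 20 Gfra1-positive WT cells (65.0%) and 13 of the 15 in cKO (86.7%) also held Ret. Independent detection at the same depth gave 14.4 and 12.8 cells. Since most cells of this cluster held Ret anyway, co-detection did not go beyond the share of Ret-positive cells there. Nearest to Gfra1 in profile were Ehd3 (r = 0.89), Vit (0.88), Igfbp3 (0.87), Otud7b (0.83) and Arfgap1 (0.83), each highest in cluster 13 or ORS-like cluster 10.

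Gfra2 (ENSMUSG00000022103, chr14:70890120-70979838 on the plus strand), the neurturin co-receptor gene, was close to absent from epithelial cells, with 12 UMIs in WT and 23 in cKO. ORS-like cluster 1 held 6 and 13 of them (0.532 and 1.60 CPM). More came from the few non-epithelial cells of cluster 21, which carried fibroblast and Schwann cell genes: 11 UMIs in 49 WT cells and 29 in 27 cKO cells. There, cells with more fibroblast than Schwann marker UMIs held all 11 of the WT UMIs and 27 of the 29 in cKO, and 4 and 24 Gfra1 UMIs.

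The ligand Artn (ENSMUSG00000028539, chr4:117926162-117929763 on the minus strand), coding for artemin, was a gene of the upper follicle and epidermis-like cells rather than of the bulb. It held 119 and 82 epithelial UMIs (0.935 and 0.633 CPM), of which the bulb had 18 in each library. Cluster 15, which carried all 6 upper HF markers and all 5 interfollicular epidermis markers (Krt1 and Krt10 among them), was highest of the compared clusters: 47 UMIs in 426 WT cells, or 8.43 (6.20 to 11.2) CPM, and 5 UMIs in 68 cKO cells, or 6.39 (2.07 to 14.9) CPM. A UMI of Artn was found in 10.1% of its WT cells and 7.35% of its cKO cells. Cluster 6, with upper HF and sebaceous markers, held 14 and 23 UMIs (1.95 and 2.96 CPM), and ORS-like cluster 9 held 17 and 7 (2.75 and 1.54 CPM). Outside the compared clusters, cluster 24 held 8 Artn UMIs in 45 WT cells (8.82 CPM, 15.6% of cells) and had 0 cKO cells. GL-like cluster 8, second for Gfra3, held 0 Artn UMIs in both libraries, and the correlation of Artn with Gfra3 over the 20 clusters was r = -0.53.

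Genes with profiles like Artn were Vegfd (r = 0.93), Mall (0.91), Gm50017 (0.91), Cstdc5 (0.91) and Cblb (0.91). All 5 peaked in cluster 15. Vegfd codes for a lymphatic growth factor, Cstdc5 for a stefin-type protease inhibitor and Cblb for a ubiquitin ligase of receptor tyrosine kinases.

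Gdnf (ENSMUSG00000022144, chr15:7810846-7837575 on the plus strand), the founding ligand gene, held 33 UMIs in WT epithelial cells and 4 in cKO. Cluster 15 gave 22 of the WT UMIs (66.7%), in 18 of 426 cells (4.23%), at 3.95 (2.47 to 5.98) CPM, and 0 UMIs in 68 cKO cells, which allows up to 4.41% of cells with a UMI. At the WT level 3.09 UMIs would have fallen in those 68 cells, so a difference was not detectable at this depth. The cluster itself was unequal, with 362 of its 426 WT cells holding Y-linked UMIs only and 66 of its 68 cKO cells Xist only. The 362 WT cells held 20 Gdnf and 40 Artn UMIs, the 21 Xist-only WT cells 0 and 1, and the 66 Xist-only cKO cells 0 and 5. The melanocyte-like cells, outside the epithelium, held 4 and 3 further Gdnf UMIs in 26 and 10 cells, at 12.2 (3.32 to 31.2) and 15.5 (3.19 to 45.2) CPM, above the level of cluster 15 in both libraries, with intervals that overlapped its own. Artn and Gdnf had r = 0.76 over the 20 clusters, with cluster 15 the highest of these points for both, and the windows printed above belong to these genes.

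**Figure D4:**
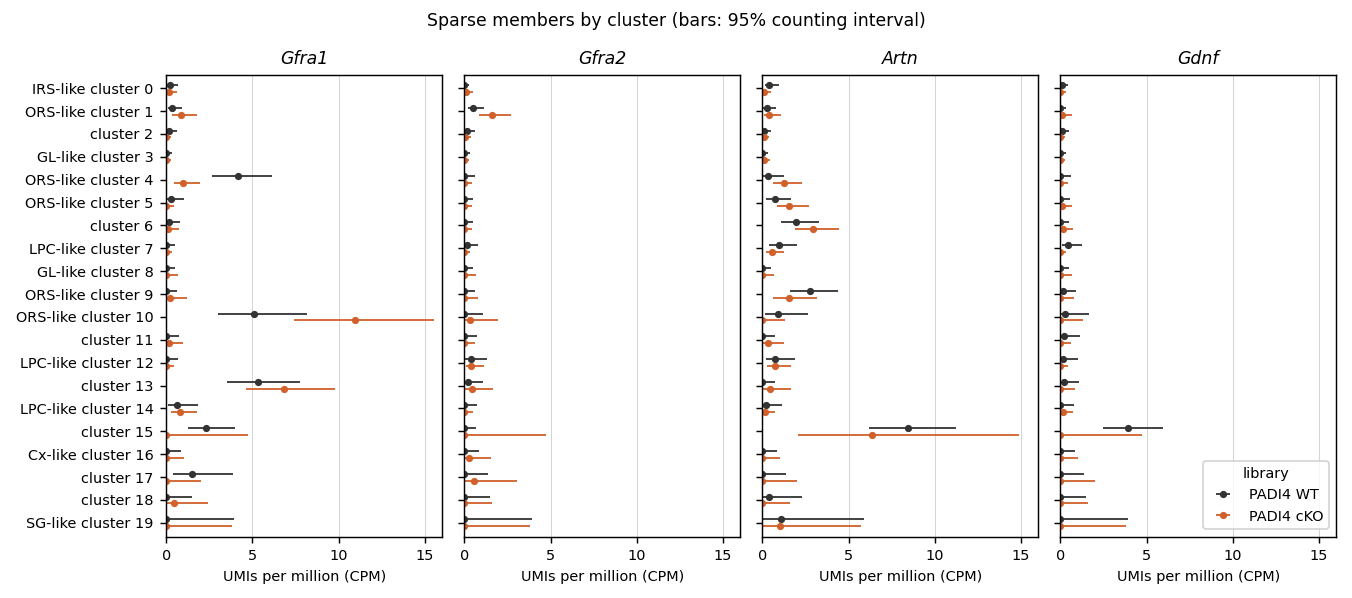
Level of Gfra1, Gfra2, Artn and Gdnf in CPM in each of the 20 compared clusters, on 1 shared axis, for PADI4 WT (dark) and PADI4 cKO (orange) with 95% counting intervals. Artn and Gdnf had their highest WT points in cluster 15 (8.43 and 3.95 CPM), and Gfra1 was raised in cluster 13 and ORS-like cluster 10.

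The clustering had some bearing on these ligand levels. With Leiden resolution 0.5, without cell cycle correction or with members allowed among the clustering genes, the cluster matched to cluster 15 held 5.38 to 5.55 CPM of Artn and 7.72 to 8.97 CPM of Gdnf in WT. With a lower limit of 1000 UMIs, its Gdnf level was 2.37 CPM. The level of Ret in ORS-like cluster 1 was also set by the clustering: it was 10.3 (WT) and 9.88 (cKO) CPM without cell cycle correction and 17.2 and 17.7 CPM with members allowed.

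Between the libraries, Ret and Gfra3 differed little. The log2 ratio of cKO over WT in all epithelial cells was 0.17 (0.06 to 0.27) for Ret and 0.21 (0.06 to 0.35) for Gfra3, neither past the 0.5 that was called a difference, and 5.17% of the 14901 genes with at least 100 UMIs were past it. Ret had 4 clusters with at least 100 UMIs and was past 0.5 in 0 of them. The ratio was 0.23 (0.05 to 0.41) in cluster 13, where 3.49% of genes were past 0.5. In LPC-like cluster 14 it was 0.18 (-0.06 to 0.42), with 3.25% of genes past. In ORS-like cluster 1 it was 0.28 (0.04 to 0.52), with 3.54% past.

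These ratios moved when only Xist-only cells were compared. In Xist-only cells, the Ret ratio was -0.066 (-0.31 to 0.19) in cluster 13, 0.01 (-0.34 to 0.39) in LPC-like cluster 14 and 0.00 (-0.31 to 0.33) in ORS-like cluster 1, so none of the 3 was then higher in cKO beyond counting error. Over all epithelial cells it was -0.30 (-0.45 to -0.14), from 14.6 CPM in WT to 11.9 CPM in cKO. The share of cells in the Ret-rich clusters differed too, and not in 1 direction. Cluster 13 made up 4.57% of Xist-only WT cells and 3.33% of Xist-only cKO cells, and ORS-like cluster 1 made up 11.8% and 7.15%. LPC-like cluster 14 went the other way, with 3.46% and 4.48%. The part of these shares in the ratio over all epithelial cells was not tested. Within the WT library alone, Xist-only cells of cluster 13 had 121.5 CPM of Ret and Y-linked cells 89.6 CPM, a log2 ratio of 0.44 (0.16 to 0.72). The same ratio was 0.49 (0.13 to 0.84) in ORS-like cluster 1 and 0.23 (-0.21 to 0.66) in LPC-like cluster 14. The number of animals was not given. Y-linked and Xist-only cells would come from different animals, so sex and animal cannot be told apart in these WT ratios.

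Gfra3 had 4 clusters with at least 100 UMIs and was past 0.5 in 1, IRS-like cluster 0, with a ratio of 0.54 (0.18 to 0.91) from 113 to 147 UMIs, in a cluster where 2.98% of genes were past. In Xist-only cells that ratio was 0.94 (0.29 to 1.73), on 20 WT and 140 cKO UMIs. In GL-like cluster 3, where Gfra3 was highest, it was 0.30 (0.05 to 0.56), with 2.56% of genes past 0.5, and in Xist-only cells 0.25 (-0.13 to 0.68). GL-like cluster 8 gave 0.10 (-0.31 to 0.49), with 3.0% of genes past, and 0.39 (-0.22 to 1.08) in Xist-only cells. Over all epithelial cells, the Gfra3 ratio in Xist-only cells was 0.24 (0.01 to 0.49). LPC-like cluster 14 gave -0.03 (-0.59 to 0.55). Ret in GL-like cluster 3 had 0.41 (-0.19 to 1.04).

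**Figure D5:**
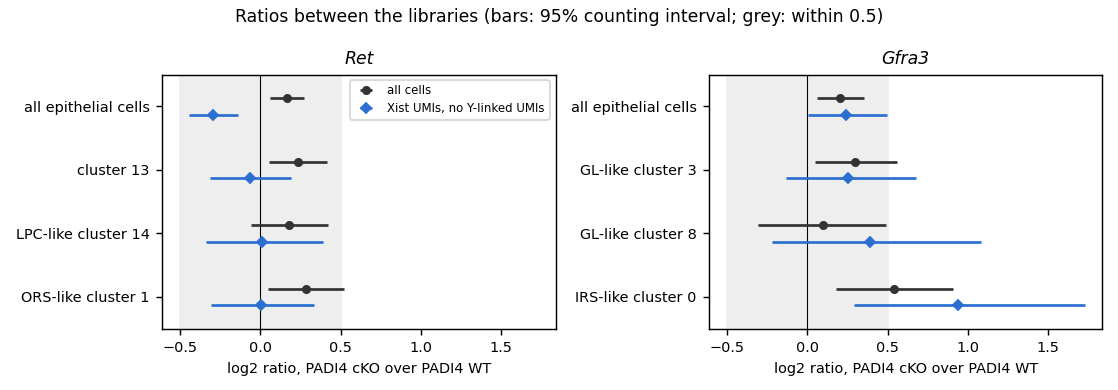
Log2 ratio of PADI4 cKO over PADI4 WT for Ret (left) and Gfra3 (right), from all cells (dark) and from cells with Xist but no Y-linked UMIs (blue), with 95% counting intervals and the range within 0.5 in grey. The Ret ratios of the 3 clusters fell from 0.23, 0.18 and 0.28 to between -0.066 and 0.01 in Xist-only cells, whereas that of Gfra3 in IRS-like cluster 0 was 0.54 and 0.94.

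Of the sparse members, Artn was past 0.5 in all epithelial cells, at -0.56 (-0.99 to -0.14). This rested on cluster 15, which had 426 WT cells and 68 cKO cells: without it the ratio was 0.016, and in Xist-only cells it was 0.68 (-0.15 to 1.74) on 12 and 82 UMIs. Gfra1 had a ratio of -0.15 (-0.57 to 0.26). Gfra2 and Gdnf stayed under 100 UMIs and were given no call.

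Ret also varied with the called cell cycle phase of the cells, a call that rests on other genes of the same cells. In ORS-like cluster 1 it was 18.2, 29.3 and 33.2 CPM in G1, S and G2M cells of WT and 14.7, 28.4 and 57.2 CPM in cKO, while median depth went from 10448 to 17556 and from 10634 to 18746.5 UMIs. In cluster 13 the spread was smaller, at 91.9, 92.4 and 118.3 CPM in WT and 111.2, 114.5 and 130.3 CPM in cKO. Gfra3 in IRS-like cluster 0 was lowest in G1 cells, at 3.11 CPM against 11.9 (S) and 8.82 (G2M) CPM in WT and 4.01 against 14.4 and 14.6 CPM in cKO. These G1 levels rest on 5 UMIs in each library. In GL-like cluster 8 the G1 level of Gfra3 was lowest in WT (12.0 CPM against 21.5 and 13.8 CPM) but not in cKO (21.1 against 22.1 and 11.2 CPM). GL-like cluster 3 had only 4 and 2 G1 cells.

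The rest of the pathway was read from a list of 33 genes: 7 other ligands and receptors, 14 adaptors and signal carriers of RET, and 12 genes that respond to GDNF and RET in the ureteric bud. At least 100 UMIs were reached by 3 of 7, 14 of 14 and 12 of 12. Among the ligands, Nrtn, coding for neurturin, held 8497 and 10623 UMIs (66.8 and 82.1 CPM). It was highest in ORS-like cluster 10 (250.8 and 319.7 CPM) and lowest in cluster 17 (6.449 and 4.403 CPM). In the Ret-rich clusters it stood at 42.0 and 45.9 CPM (cluster 13), 74.1 and 70.9 CPM (LPC-like cluster 14) and 100.2 and 127.6 CPM (ORS-like cluster 1). Its correlation over clusters was r = 0.17 with Ret and 0.04 with Gfra3. Persephin (Pspn) and Gfral had 0 UMIs, Gfra4 had 36 and 46, and Ncam1, an alternative GDNF receptor gene, was highest in cluster 6 (899.7 and 821.4 CPM).

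Of the 12 response genes, 6 had their highest mean level in cluster 13, where Ret was highest: Etv4, Etv5, Spry1, Spry4, Dusp6 and Mmp14. Of all 14901 genes with at least 100 UMIs, 1234 (8.28%) had their highest level there. The list was chosen with earlier results of these data known, so this count is a description. Etv4 and Etv5 code for ETS transcription factors and the Spry and Dusp6 genes for feedback inhibitors of receptor tyrosine kinase and ERK signalling, which many receptors share. Dusp6 stood at 222.5 and 248.8 CPM there, against medians over the 20 clusters of 20.9 and 25.3 CPM. Spry4 stood at 8.67 and 15.98 CPM against medians of 1.33 and 1.46 CPM, and Etv4 at 136.6 and 161.2 CPM against 37.8 and 37.1 CPM, with ORS-like cluster 1 close by at 143.0 and 154.4 CPM. Over the 20 clusters, r with Ret was 0.84 for Spry4, 0.70 for Spry1, 0.65 for both Dusp6 and Etv4 and 0.51 for Etv5. All of these genes were among the 6 that peaked in cluster 13 with Ret, so positive values were favoured by that choice. For the other response genes r with Ret was not computed.

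The others peaked elsewhere, among them Wnt11 in IRS-like cluster 0 (43.1 and 53.9 CPM), Myb in GL-like cluster 3 (132.2 and 143.1 CPM), Cxcr4 in cluster 6, Spry2 in SG-like cluster 19 and Met in cluster 15. Of the 14 adaptor genes, Dok1 was the one with its peak in cluster 13 (3.35 and 2.97 CPM), and the spread over clusters differed between adaptors. Grb2 ranged from 74.2 and 64.6 CPM in its lowest cluster to 99.01 and 109.0 CPM in its highest, Frs2 from 74.2 and 74.9 to 179.3 and 206.8 CPM, and Dok4 from 2.93 and 2.33 to 54.4 and 55.0 CPM. Between the libraries, 1 of the 14 adaptor genes was past 0.5 in all epithelial cells, where 5.17% of all compared genes were past it. This gene was Grb10, which was lower in cKO (-0.80). Cluster 24, which had 45 WT cells and 0 cKO cells, held 149 of the 345 WT UMIs of Grb10, and all cKO epithelial cells held 201. The Nrtn ratio was 0.30 (0.26 to 0.34). In cluster 13, 2 of 9 response genes compared, Spry1 and Spry4, were past 0.5 and higher in cKO, and 0 were lower. There 3.49% of all genes were past 0.5. Other clusters had response genes past 0.5 in either direction, for example Etv4, Etv5 and Dusp6 lower in cluster 2.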

How the data were processed

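Cells were sorted and sequenced with a droplet 3′ kit, and the authors deposited raw UMI counts per gene and barcode, made with Cell Ranger 7.1.0 on mm10 per the file headers and labels. Whether introns were counted is not given in the sources used here. Empty droplets were still present. Cells were droplets with 1000 to 8000 genes and 2000 to 60000 UMIs, in which hemoglobin genes made up no more than 1% and mitochondrial genes no more than 20% of the UMIs, and the ribosomal share lay between percentiles 5 and 99. CellBender and Harmony, which the authors used, were not run. Clustering used scanpy 1.11.5 and igraph 0.11.9 (1000 variable genes without members, pathway, Padi and cell cycle genes, cell cycle scores regressed out, 50 components, 15 neighbours, Leiden resolution 1.0). A cluster was named from at least 3 markers at 1.5-fold and 5 CPM. Called doublets (289 in WT, 300 in cKO, by the cKO threshold) were kept, and leaving them out was an alternative. Levels were summed UMIs as CPM with exact Poisson intervals, shares had exact Clopper-Pearson intervals and log2 ratios (0.5 UMI added) exact conditional binomial ones (numpy 2.4.6, scipy 1.17.1, pandas 2.3.3). Where 0 cells held a UMI, the limit given was 3 divided by the number of cells, which is lower than the Clopper-Pearson bound. Named were the 6 members, pathway genes with at least 100 UMIs and the 5 nearest profiles per member among genes reaching 10 CPM. Features named after their values were seen are the pathway genes under 100 UMIs. In data simulated for cluster 13 (8632 genes), 100% of 100 raised and 93 lowered genes were recovered and 0.960% of the others passed 0.5. The simulation held counting error only, with changes set beyond 0.5 and no difference between animals, sexes or libraries. The 0.960% is therefore not an error rate for the real libraries, where 3.49% of genes in cluster 13 were past 0.5. Gene positions came from GRCm38 (32158 of 32285 IDs matched). The members and lists were chosen with earlier results of these data known. Values of 1 gene of the pathway list are not reported here.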

Additional observations from a re-analysis of the deposited data

How the results depend on the processing

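Of 302 recomputed values for 32 results, 219 stayed within the counting interval of the value given (counts of genes within 1.5 times), 81 moved and 2, both of a called ratio, changed sign, and 23 could not be formed since a cluster had merged into another (GL-like cluster 8 under 6 settings, for example). The level of Ret in cluster 13 (98.5 CPM in WT and 115.7 CPM in cKO) shrank when clusters were broader: 65.2 and 72.9 CPM at resolution 0.5, 79.2 and 95.4 CPM without cell cycle correction, 84.5 and 98.96 CPM with members allowed among the clustering genes, and 84.7 CPM (WT) with a lower limit of 4000 UMIs. It was 125.0 and 147.6 CPM with mitochondrial and ribosomal protein genes left out of the total and 121.5 CPM in Xist-only WT cells. The share of its cells with a Ret UMI was 53.9% and 62.8% at resolution 0.5, 61.2% and 69.1% without cell cycle correction, 65.1% and 71.9% with members allowed, 76.5% and 63.7% (WT) with limits of 1000 and 4000 UMIs, and 17.7% and 20.2% when thinned. Gfra3 in GL-like cluster 3 was 27.4 and 33.4 CPM without the mitochondrial and ribosomal protein genes, and in cKO 21.1 CPM at resolution 0.5 and 22.0 CPM without cell cycle correction. In Xist-only cells, the log2 ratios were -0.30 for Ret in all cells and -0.066 for Ret in cluster 13, both of the other sign but never past 0.5, 0.94 for Gfra3 in IRS-like cluster 0 and 0.68 for Artn, the last past 0.5 with its sign turned. Artn without cluster 15, a setting chosen after seeing the data, was 0.016, also of the other sign. With at least 500 UMIs per gene, 2.45% of genes were past 0.5 in all epithelial cells. For each of these changes the cause was not tested.

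No paired analysis was possible because each genotype had 1 library. Depth limits the sparse members most: Gdnf and Gfra2 rest on at most 33 epithelial UMIs per library. UMI levels were not compared between genes as amounts per length.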
